A study of Homo sapiens with 16 samples.

Results

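The comparison described here sets K562 cells after 48 h of phorbol 12-myristate 13-acetate (PMA) against the same line at 0 h. Its members are 4 of the 16 libraries of an RNA sequencing time course, 2 labelled 48 h and 2 labelled 0 h, chosen by the time label alone. K562 is an established human leukaemia line with erythroid features, and every library came from wild-type cells of that line. Libraries were made from total RNA after removal of ribosomal RNA. PMA was used at 25 nM, the cells were kept in RPMI medium with serum and antibiotics, and the 0 h cells had received no PMA. The medium was renewed after 24 h and after 48 h, so time under PMA and renewal of the medium cannot be told apart, and the labels do not say whether the fresh medium held PMA. The labels do not say whether the 2 libraries of a time point came from separate cultures. The p-values below set differences against the spread between libraries of a time point, estimated over all 16 libraries together. That spread may be technical, and it is not that of the 0 h or 48 h libraries alone. The 2 libraries at 24 h and the 2 at 72 h place the 48 h state between its neighbours.

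PMA stands in for diacylglycerol, the lipid messenger that switches on protein kinase C. Active protein kinase C feeds the RAS, RAF and ERK cascade, which turns on immediate-early genes such as EGR1 and FOS, and it also activates NF-kB. In K562 cells this treatment is known to slow division, to make the cells attach and spread, and to shift them from an erythroid to a megakaryocyte-like state. Megakaryocytes are the large polyploid cells of the marrow that shed platelets. Their surface integrin is a pair made of ITGA2B and ITGB3, and their granules carry adhesive proteins such as thrombospondin 1 and von Willebrand factor. The erythroid state rests on transcription factors such as GATA1 and KLF1, on globins and on the enzymes that make haem.

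The 0 h libraries held 29562385 and 29241520 estimated reads and the 48 h libraries 33458595 and 37689730. Over 17559 genes that passed the low-count filter, replicate levels correlated at r = 0.986 at 0 h and 0.990 at 48 h (across genes, which are not independent replicates). The root-mean-square difference in log2 CPM (a gene's reads scaled to library size) was 0.545 between the 0 h libraries and 0.454 between the 48 h libraries. Between a 0 h and a 48 h library it was 1.53 to 1.56. A 48 h and a 72 h library were 0.508 to 0.574 apart, close to the spread between replicates. The 0 h libraries differed from each other: replicate 2 had a fragment gap of 199 nt against 217 nt in replicate 1, and their difference across 9983 genes correlated with GC content at r = −0.738. Without 0 h replicate 2, 4869 genes were higher and 3755 lower at 48 h, against 5305 and 4224 with it. Over the 578 tested genes of the lists used below, markers of other cell types left out, 243 were higher and 197 lower. Their median log2 fold change was 0.10 with 0 h replicate 2 and 0.18 without it. PLCG2, the gene with the most reads in each 0 h and 48 h library, held 3.20% of them in 0 h replicate 2 and is not read here.

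At 48 h, 5305 genes were higher and 4224 lower than at 0 h (edgeR quasi-likelihood test, adjusted p under 0.05). These 9529 genes were 54.3% of those tested, with 30.2% higher and 24.1% lower, and 10397 genes had an unadjusted p under 0.05. With that share of all genes called, a called gene or a list near these shares is not by itself unusual. Lack of overlap between the 0 h and 48 h libraries was common too. In all, 6741 genes met the naming rule, which requires a call and groups without overlap. Lack of overlap in a gene below is therefore not by itself unusual. Of the called genes, 2938 were at least 2-fold higher and 1660 at least 2-fold lower. The median log2 fold change over all genes was −0.02. With libraries scaled to total counts the median moved to −0.18, and the split turned from 55.7% to 44.3% higher, with 4452 genes higher and 5604 lower. Levels below are CPM on TMM-scaled library sizes in the order replicate 1 and replicate 2, and fold changes are fitted log2 values. In these bulk libraries fewer cells of a kind and less RNA per cell cannot be told apart.

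The 12 largest rises that met the naming rule were of genes at or near 0 before treatment. PCSK1 (chromosome 5, 96390415 to 96434143, GRCh38), a protease that cleaves prohormones, had 0 reads in both 0 h libraries and 82.4 and 83.5 CPM at 48 h, which is at least 879-fold higher (adjusted p by edgeR 3.79e-11). Its level was 23.8 and 22.3 CPM at 24 h. STC1 (chromosome 8, 23841915 to 23854807), which encodes the glycoprotein hormone stanniocalcin, stood at 0.583 and 0.322 CPM at 0 h and 2292 and 2547 at 48 h (log2 fold change 12.36, SE 0.26, adjusted p by edgeR 2.57e-13). By the naming rule, the 0 h and 48 h libraries did not overlap for either gene. Both were higher at 48 h than at 24 h (log2 fold change 1.85 and 2.68, adjusted p by edgeR 1.09e-05 and 1.70e-07). INHBA, the subunit of activin A, went from 0.184 and 0.0644 CPM to 980.0 and 1029 (log2 fold change 12.92, SE 0.27, adjusted p by edgeR 2.57e-13). Without 0 h replicate 1 that fold change was 13.85. RLN3, a relaxin-family peptide hormone, had 2 reads in all at 0 h and 203 and 237 CPM at 48 h, a ratio of 6261 with a 95% counting interval of 1733 to 51703 (adjusted p by edgeR 1.61e-12).

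The other 8 rises all began from 0 reads in both 0 h libraries. Among them were CORO2B, a coronin of the actin cytoskeleton, at 64.9 and 67.7 CPM and at least 703-fold higher, and APCDD1L at 64.5 and 78 CPM and at least 755-fold higher. CEMIP, which takes part in breaking down hyaluronan, reached 32.8 and 31.1 CPM, at least 339-fold higher. PCDHGC5, a clustered protocadherin, reached 30.5 and 33.2 CPM (at least 338-fold), and its exons are shared in part with the other gamma protocadherins, so its count is uncertain. DMBT1, TAGLN3, SNCB (beta-synuclein) and SLAMF8 lay at 16.7 to 25.4 CPM in the 48 h libraries. Each was at least 181-fold higher, the smallest bound of the set, and all 4 were detected by 24 h.

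**Figure D1:**
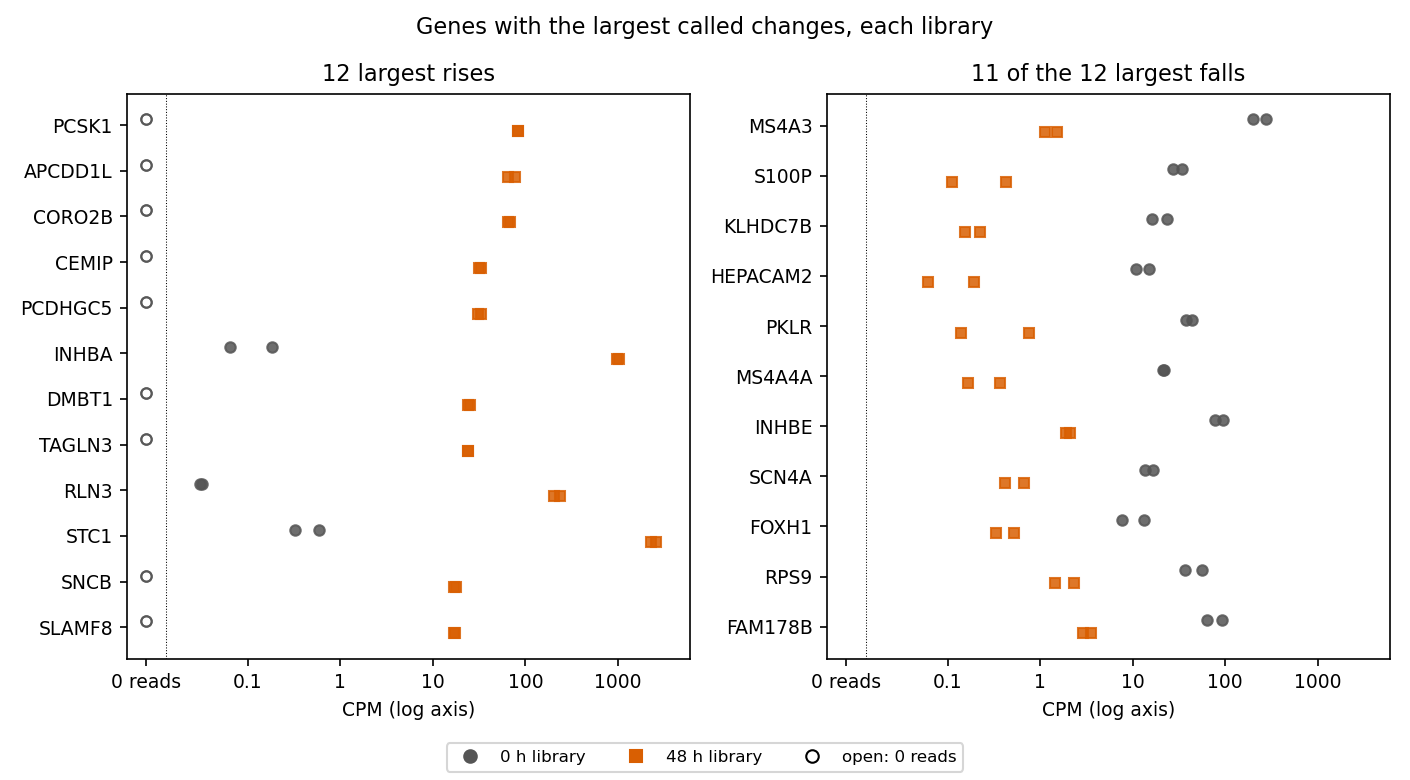
Levels of the 12 largest rises (left) and 11 of the 12 largest falls (right) in each 0 h library (circles) and 48 h library (squares), in CPM on a log axis with 0 reads drawn as open symbols left of the dotted line. Of the rises 9 start from 0 reads, and in every row the 0 h and 48 h symbols are apart, as the naming rule requires.

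Of the 12 largest falls by the same rule 11 are given, and they began from up to 276 CPM at 0 h. MS4A3 (chromosome 11, 60056587 to 60071128), a membrane protein of early myeloid cells, fell from 276 and 201 CPM to 1.52 and 1.12 (log2 fold change −7.50, SE 0.23, adjusted p by edgeR 8.00e-12). PKLR, the pyruvate kinase of liver and red cells, fell from 38.1 and 43.5 CPM to 0.762 and 0.139 (log2 fold change −6.52, SE 0.37). Leaving out 48 h replicate 1 or 2 gave PKLR −8.15 or −5.73. S100P, a calcium-binding protein, fell from 27.5 and 34.3 CPM to 0.427 and 0.112 (log2 fold change −6.86, and −8.07 or −6.17 without 48 h replicate 1 or 2). The naming rule requires groups without overlap, so every one of these 48 h libraries lay below both 0 h libraries. INHBE, the subunit of activin E, fell from 77.9 and 94.9 CPM to 1.92 and 2.09 (log2 fold change −5.42, adjusted p by edgeR 3.44e-11), opposite in direction to INHBA of the same ligand family. KLHDC7B (−6.68), HEPACAM2 (−6.59, or −7.64 without 48 h replicate 2), MS4A4A (−6.34, or −6.98 without 48 h replicate 1), the sodium channel gene SCN4A (−4.80), FOXH1 (−4.62) and FAM178B (−4.60) also fell, all as log2 fold changes. The ribosomal protein gene RPS9 met the rule too (log2 fold change −4.61, SE 1.64, adjusted p by edgeR 0.0285). RPS9 has near-identical copies that can split its reads, and it lost its call without 0 h replicate 1 (adjusted p by edgeR 0.0657) and without 48 h replicate 1 or 2 (adjusted p by edgeR 0.103 and 0.138).

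Megakaryocyte and platelet genes were higher on balance, with sharp exceptions among the genes that define the lineage. Of 31 listed genes 22 were tested, and 12 were higher, 4 lower and 6 not called, with a median log2 fold change of 0.95 against −0.02 over all genes. The summed level of the list was 372 to 374 TPM (a level scaled by transcript length) at 0 h and 2064 to 2263 TPM at 48 h. Without 0 h replicate 2 the counts were 14 higher and 4 lower and the median was 1.44. With no low-count filter, an alternative that tests 29 genes of the list, the median was 2.21, the highest of the alternatives. The lowest was 0.79, with libraries scaled to total counts. Over the 18 members with at least 10 counts in every library the median was 0.82, with 10 higher and 4 lower. Tested against a 2-fold change, 9 of 22 were higher and 0 lower.

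THBS1 (chromosome 15, 39581079 to 39599466), thrombospondin 1 of platelet alpha granules, stood at 3.53 and 3.54 CPM at 0 h and 4228 and 4150.2 at 48 h (log2 fold change 10.21, SE 0.23, adjusted p by edgeR 5.36e-13). ITGB3 (chromosome 17, 47253846 to 47311816), the beta subunit of the platelet fibrinogen receptor, went from 1.75 and 1.29 CPM to 897 and 879.8 (log2 fold change 9.19, SE 0.16, adjusted p by edgeR 9.70e-14). Both genes had 48 h libraries far above both 0 h libraries. Its partner ITGA2B (chromosome 17, 44372180 to 44389505), the alpha subunit, went the other way, from 52.6 and 62.9 CPM to 33 and 34.1 (log2 fold change −0.78, SE 0.11, adjusted p by edgeR 3.00e-05). At 24 h ITGA2B had been at 13.2 and 12.9 CPM, so at 48 h it had risen by 1.36 on the log2 scale (adjusted p by edgeR 4.55e-06), and at 72 h it reached 59.4 and 64.4 CPM, beside 52.6 and 62.9 at 0 h. The 2 subunits of the integrin thus lay on opposite sides of their 0 h levels at 48 h.

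TUBB1, the beta-tubulin of platelet microtubules, showed a late rise, from 2.46 and 2.41 CPM at 0 h and 1.55 and 1.33 at 24 h to 11.1 and 11.4 at 48 h (log2 fold change 2.21 against 0 h and 2.97 against 24 h, adjusted p by edgeR 7.98e-08 and 1.86e-07). PTGS1, the cyclooxygenase that platelets use to make thromboxane, went from 11.9 and 11.5 CPM to 162 and 162 (log2 fold change 3.79). CD9, a tetraspanin of the platelet surface, went from 0.338 and 0.354 CPM to 25.0 and 26.9 (log2 fold change 6.22). These 3 genes had no overlap between the 0 h and the 48 h libraries. VWF, von Willebrand factor, had 0 reads at 0 h and 1.68 and 1.51 CPM at 48 h, higher by at least 16.9-fold. MMRN1, the granule protein multimerin 1, had 0 reads at 0 h and 1.52 and 1.28 CPM at 48 h, higher by at least 14.9-fold. In TPM at 48 h VWF averaged 0.317 and MMRN1 0.452, against 1115 for THBS1.

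Members called lower included P2RY1, an ADP receptor of platelets, at 57.7 and 45.0 CPM and then 22.6 and 20.5 (log2 fold change −1.25), and PLEK, pleckstrin, at 1.35 and 0.966 CPM and then 0.610 and 0.446 (log2 fold change −1.13). GP1BB, a subunit of the von Willebrand factor receptor, was uneven between replicates (9.36 and 34.3 CPM at 0 h and 29.5 and 37.8 at 48 h) and not called (adjusted p by edgeR 0.667). A further 8 members did not reach the filter and never had more than 5 reads in a library, among them CLEC1B, F13A1, GP1BA, GP9, PF4, SELP and TREML1. Several of these define mature megakaryocytes: PF4 is platelet factor 4, and GP1BA and GP9 complete the von Willebrand factor receptor. Of genes that mark the megakaryocyte state named in the labels, ITGB3, THBS1 and TUBB1 were thus higher, ITGA2B was lower and these 8 were under the filter.

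**Figure D2:**
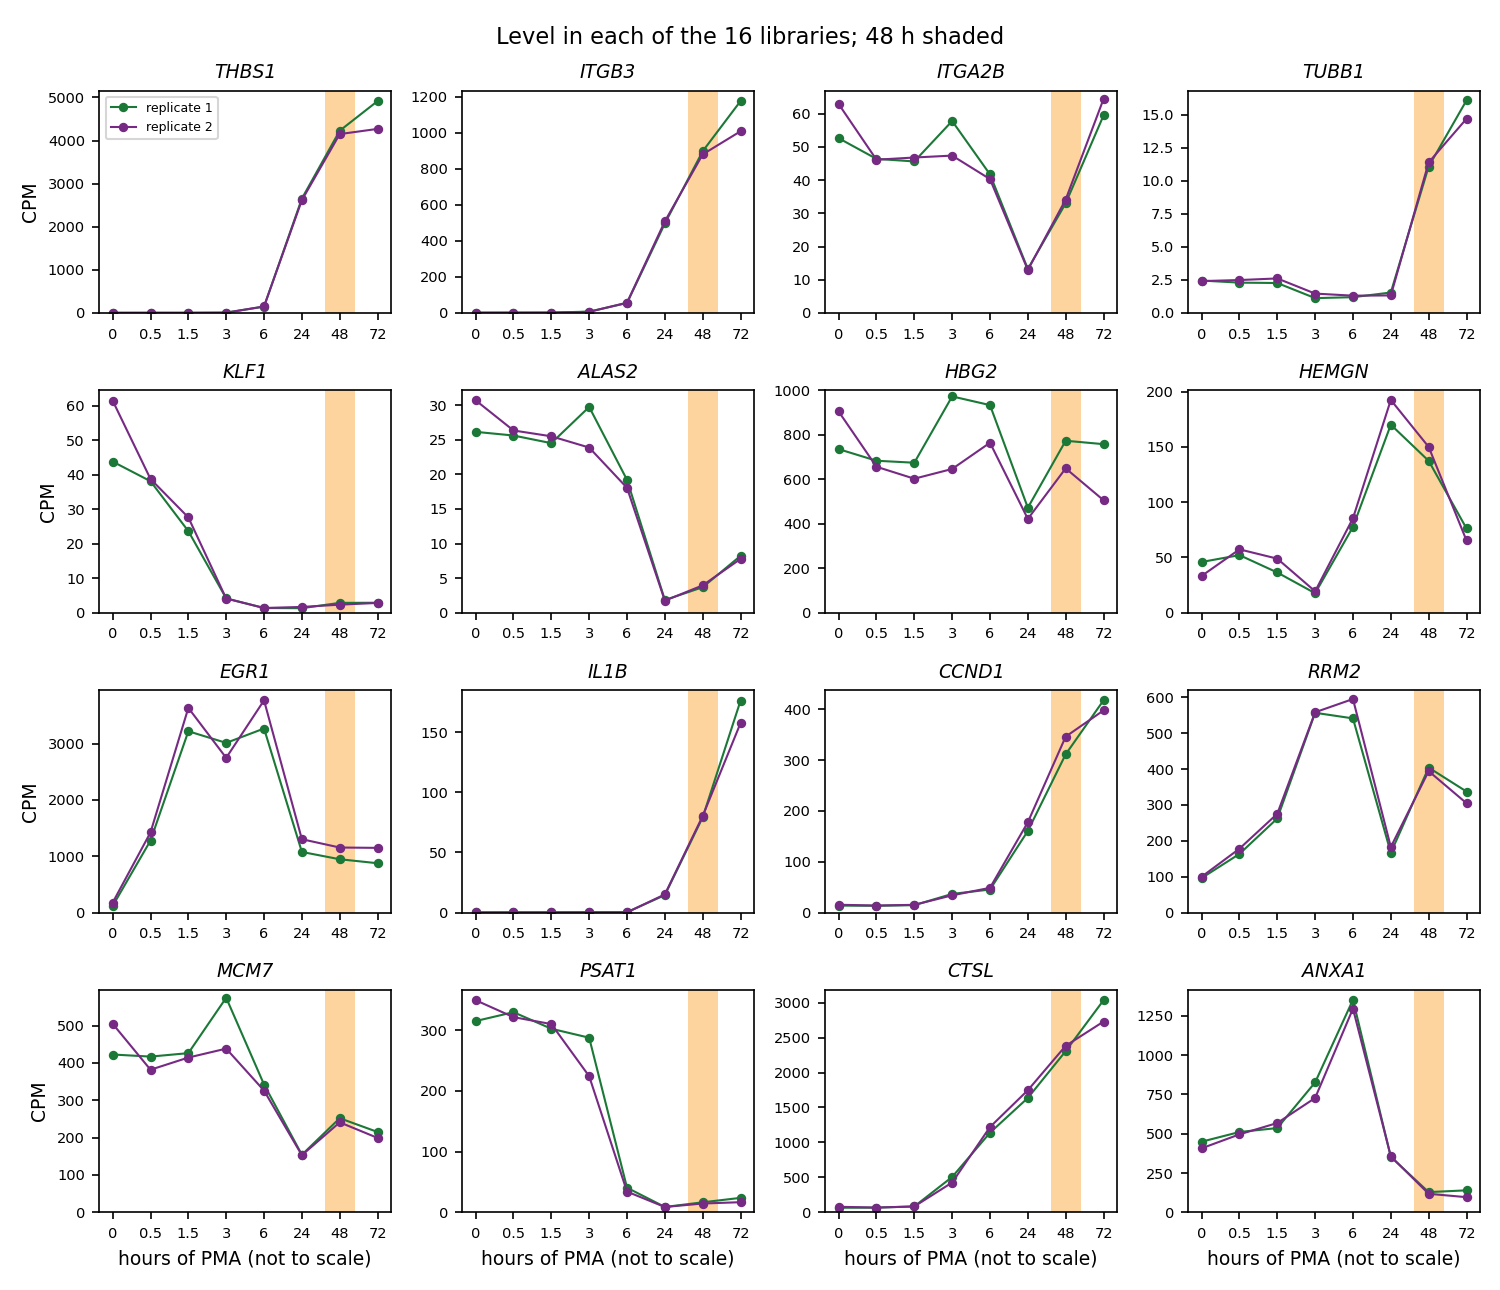
Levels of 16 genes in CPM at each of the 8 time points (hours of PMA, evenly spaced and not to scale), 1 line per replicate, each panel with its own axis from 0 and the 48 h point shaded. ITGB3 and THBS1 climb to 48 h while ITGA2B dips to 12.9 and 13.2 CPM at 24 h and comes back.

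Erythroid genes were lower on balance. Of 31 tested members 2 were higher, 22 lower and 7 not called, with a median log2 fold change of −1.24. The summed level of the list was 6966 and 7614 TPM at 0 h, 3202 and 2749 TPM at 24 h, then 5549 and 4617 TPM at 48 h. Alpha-globin gene HBA1 (chromosome 16, 176680 to 177522) fell from 141 and 219 CPM to 32.8 and 45.5 (log2 fold change −2.20, SE 0.25, adjusted p by edgeR 5.73e-06). HBA2, which encodes the same protein and can share reads with HBA1, was lower too (log2 fold change −2.02). HBZ, the embryonic zeta-globin, fell from 33.3 and 61.8 CPM to 2.86 and 3.93 (log2 fold change −3.80). HBG2, a fetal gamma-globin and the member with the highest mean TPM, did not pass the test, at 736 and 905 CPM at 0 h and 773 and 649 at 48 h (log2 fold change −0.21, adjusted p by edgeR 0.419). The 0 h and 48 h libraries of HBG2 overlapped. Beta-globin HBB had at most 4 reads in any library.

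Several other members encode proteins of the red cell membrane, its skeleton or globin handling. GYPB, glycophorin B, reached 1.71 and 2.06 CPM at 48 h and was lower than at 0 h (log2 fold change −2.70), though near copies such as GYPE can share its reads. EPB42, protein 4.2 of the red cell membrane, fell from 115 reads in all at 0 h to 3 at 48 h. Its 0 h level over its 48 h level was a ratio of 46.4 with a 95% counting interval of 15.5 to 228 (adjusted p by edgeR 8.82e-07). AHSP, the chaperone of alpha-globin, went from 1.63 and 2.61 CPM to 0.0305 and 0.0837. SPTB, beta-spectrin, was lower by a small margin, at 49.5 and 57.0 CPM at 0 h and 42.8 and 41.6 at 48 h (log2 fold change −0.33, adjusted p by edgeR 0.0242). Between 24 and 48 h SPTB had risen from 17.4 and 18.2 CPM, by 1.24 on the log2 scale (adjusted p by edgeR 1.42e-05). In all, 11 erythroid members were higher at 48 h than at 24 h and 1 was lower, where 8.88% and 6.12% of all genes were called. Against the list, HEMGN, a nuclear protein of blood progenitors, went from 45.9 and 33.2 CPM to 137 and 149.9 (log2 fold change 1.86, adjusted p by edgeR 3.52e-07). TSPO2 was the other member called higher, from 0 reads to 0.457 and 0.669 CPM, at least 5.97-fold.

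The enzymes of haem synthesis did not move together. Of 16 members 4 were higher, 10 lower and 2 not called (median log2 fold change −0.57). ALAS2, the erythroid form of the first enzyme, fell from 26.1 and 30.7 CPM to 3.69 and 3.96 (log2 fold change −2.89, adjusted p by edgeR 5.04e-10). GLRX5, which serves iron-sulfur cluster assembly, rose by 1.35 on the log2 scale. UROD, uroporphyrinogen decarboxylase, was called higher at 0.36 (adjusted p by edgeR 0.0124) but lost that call without 0 h replicate 1 (adjusted p by edgeR 0.126) and without 48 h replicate 2 (0.0701).

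Lineage transcription factors split. Of 34 tested, 16 were higher, 13 lower and 5 not called. KLF1 (chromosome 19, 12884422 to 12887199), the erythroid Krüppel-like factor, fell from 43.8 and 61.4 CPM to 2.86 and 2.34 (log2 fold change −4.34, SE 0.18, adjusted p by edgeR 1.73e-10). MYB, a progenitor factor, fell from 241 and 249.6 CPM to 72.5 and 81.0 (log2 fold change −1.68), and MYC, which drives growth, from 136 and 161 CPM to 65.8 and 93.1 (log2 fold change −0.90). SPI1, the myeloid and lymphoid factor PU.1, and RUNX1, a factor of blood stem cells and megakaryocytes, were lower too (log2 fold change −1.21 and −0.52). None of these 5 genes had overlapping groups.

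GATA1, the factor that erythroid cells and megakaryocytes share, did not pass the test at 107 and 155 CPM at 0 h and 132 and 139 at 48 h (log2 fold change 0.05, adjusted p by edgeR 0.811). GATA2, its early counterpart, went from 113 and 154 CPM to 351 and 401 (log2 fold change 1.49, adjusted p by edgeR 2.55e-06). A pair of ETS-family factors of megakaryocytes had different courses. ERG had 2 reads in all at 0 h, 11.6 and 14.2 CPM at 24 h and 16.4 and 18.4 at 48 h, a ratio of 495 with a 95% counting interval of 137 to 4089 against 0 h. FLI1 was at 0.0614 and 0.129 CPM at 0 h, 0.0646 and 0.0208 at 24 h, then 0.549 and 0.725 at 48 h. It reached 4.43 and 4.53 CPM at 72 h. FLI1 was higher at 48 h than at 0 h (log2 fold change 2.71, adjusted p by edgeR 9.61e-04) and higher again at 72 h than at 48 h (2.80, adjusted p by edgeR 0.00191). NFE2, a late factor of platelet formation, was lower than at 0 h, at 78.9 and 99.1 CPM and then 44.8 and 48.2 (log2 fold change −0.94), but had risen from 17.1 and 20.8 CPM at 24 h. GFI1B, a repressor needed in both lineages, was higher (log2 fold change 1.05).

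Most immediate-early genes were higher at 48 h. Of 26 tested, 23 were higher, 1 lower and 2 not called, with a median log2 fold change of 2.77. EGR1 (chromosome 5, 138465490 to 138469315), a zinc finger factor induced by ERK, stood at 118 and 175 CPM at 0 h and 946 and 1154 at 48 h (log2 fold change 2.84, SE 0.20, adjusted p by edgeR 3.55e-08). Its level at 6 h had been 3266 and 3766 CPM, so the 48 h libraries lay between the 0 h and the 6 h libraries. EGR3 went from 0.184 and 0.225 CPM to 146 and 170.0 (log2 fold change 9.57), and EGR4 from 0 reads to 3.44 and 4.02 CPM, at least 39.5-fold. For all 3 genes every 48 h library lay above both 0 h libraries. FOS (2.82), FOSB (5.48), JUN (2.15) and JUNB (2.89), subunits of the AP-1 dimer, were higher on the log2 scale. ATF3, a stress-induced partner of AP-1, was the member called lower (−1.44), and SRF, the factor that binds CArG boxes at such genes, was not called at 0.01 (adjusted p by edgeR 0.978). Against 24 h, 2 members were higher and 3 lower.

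The list of ERK feedback and protein kinase C and D genes had more members higher than lower. Of 26 genes in the list of ERK phosphatases, Sprouty proteins and protein kinases C and D, 16 were higher and 3 lower (median log2 fold change 0.90). DUSP5, a phosphatase that acts on nuclear ERK, went from 3.84 and 4.28 CPM to 614 and 602 (log2 fold change 7.23, SE 0.18, adjusted p by edgeR 9.32e-13). SPRY2, an inhibitor upstream of ERK, went from 8.81 and 8.63 CPM to 76.6 and 71.3 (log2 fold change 3.08). Both genes had levels at 48 h near those at 24 h (574 and 584 and 80.9 and 84.4 CPM). The protein kinase C genes, whose products PMA binds, split by isoform: PRKCE (4.12) and PRKCA (1.41) were higher and PRKCQ (−0.86) and PRKCB (−0.55) lower on the log2 scale.

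Promoters of a few genes of this report hold sequences that match the motifs of transcription factors. Of 17471 tested genes with a symbol, 12153 had an entry in the RefSeq promoter table (GRCh38.p14), and motifs were searched on both strands in the 250 bases before the start of transcription. Printed below, 5′ to 3′ on the gene's strand, are bases 120 to 11 before the start of 6 genes named in this report, with the motif in capitals: the CArG box of SRF in EGR1 (chr5:138465359-138465468, plus strand) and FLNA (chrX:154374645-154374754, minus strand), the AP-1 motif TGANTCA in MMP10 (chr11:102780639-102780748, minus strand) and IL11 (chr19:55370474-55370583, minus strand), and the GATA motif AGATAA in SPTB (chr14:64879918-64880027, minus strand) and GYPE (chr4:143905570-143905679, minus strand). They were chosen to show the motif of an immediate-early, a cytoskeletal, a protease, a cytokine and a pair of red cell genes.
EGR1: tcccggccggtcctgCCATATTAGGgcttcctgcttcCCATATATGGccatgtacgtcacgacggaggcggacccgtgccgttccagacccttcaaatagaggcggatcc
FLNA: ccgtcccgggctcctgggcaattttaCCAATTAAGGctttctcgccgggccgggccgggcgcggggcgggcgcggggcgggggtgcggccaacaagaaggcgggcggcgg
MMP10: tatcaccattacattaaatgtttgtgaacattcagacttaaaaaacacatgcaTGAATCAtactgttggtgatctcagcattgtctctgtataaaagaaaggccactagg
IL11: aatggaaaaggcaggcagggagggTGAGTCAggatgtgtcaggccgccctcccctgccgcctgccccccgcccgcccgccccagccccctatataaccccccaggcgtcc
SPTB: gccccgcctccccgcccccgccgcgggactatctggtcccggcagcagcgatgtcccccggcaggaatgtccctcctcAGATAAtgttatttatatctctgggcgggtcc
GYPE: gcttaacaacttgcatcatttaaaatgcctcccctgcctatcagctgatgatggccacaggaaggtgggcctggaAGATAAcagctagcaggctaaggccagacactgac

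EGR1 held a pair of CArG boxes and FLNA a single box, and CArG boxes were found in 2 of 23 promoters of the immediate-early list, EGR1 and SRF. A match here is a description of letters, not a site of binding or a cause. The AP-1 motif was found in 5.42% of promoters of genes higher at 48 h, 2.96% of those lower and 4.41% of all tested. Among genes at least 8-fold higher, a group added after the data were seen, it was in 80 of 772 promoters (10.4%), and among genes at least 8-fold lower in 2 of 93 (2.15%). The GATA motif AGATAA was in 17 of the 93 promoters of genes at least 8-fold lower (18.3%) and in 8.94% of those at least 8-fold higher. Over all called genes it was in 5.50% of promoters of higher genes and 4.48% of lower, against 5.68% of genes not called and 5.32% of all tested. By list, 9 of 18 erythroid promoters held AGATAA, those of RHD, GYPE, TSPO2, KEL, HBD, SPTB, EPB42, EPOR and ALAS2. The EGR motif (GCGGGGGCG or GCGTGGGCG) was in 10.9% of promoters of higher genes, 7.77% of lower and 8.22% of all. The E2F motif TTTNGCGC was in 1.74% of higher, 3.32% of lower and 2.34% of all, and the ETS motif CCGGAAG in 14%, 15.1% and 14.3%. CArG boxes were in 1.16%, 1.39% and 1.08%. In the groups at least 8-fold higher and at least 8-fold lower, the ETS motif was in 3.89% and 1.08% of promoters, the EGR motif in 9.07% and 4.30%, the CArG box in 1.81% and 2.15%, and the E2F motif in 7 of 772 and 0 of 93. Median GC content was 65.2% in promoters of higher genes, 64% in those of lower genes and 59.6% in those at least 8-fold lower, and its part in the motif shares was not tested.

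Inflammatory genes were mostly higher than at 0 h, and 9 of them were lower than at 24 h. Of 27 tested members of the NF-kB and cytokine list 19 were higher and 3 lower at 48 h than at 0 h (median log2 fold change 1.48), whereas against 24 h 2 were higher and 9 lower. CCL2, a monocyte-attracting chemokine, stood at 0.491 and 0.515 CPM at 0 h and 669 and 731 at 48 h (log2 fold change 10.43, SE 0.21, adjusted p by edgeR 2.50e-13). IL1B (chromosome 2, 112829751 to 112836903), the cytokine interleukin 1 beta, was at 0.0614 and 0.129 CPM at 0 h, 14.5 and 15.1 at 24 h, 79.2 and 80.3 at 48 h, then 176 and 158 at 72 h (log2 fold change at 48 h 9.67, adjusted p by edgeR 9.32e-13). IL11, a cytokine that acts on megakaryocyte progenitors, was at 3.04 and 4.34 CPM at 0 h, 143 and 157 at 24 h, 43.7 and 46.3 at 48 h, then 14.5 and 20.6 at 72 h (log2 fold change at 48 h 3.61). IL1B was higher at each of these times than at the one before, and IL11 was lower from 24 h on. The chemokine gene CXCL2 (−2.22) and TNFAIP3 (−2.07), an inhibitor of NF-kB signalling, were lower than at 0 h on the log2 scale, and NFKBIA, the inhibitor IkB-alpha, was higher (0.66).

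TNF was listed at 0 reads, and IER3 had at most 5 in any library from 0, 24, 48 or 72 h. Both lie in the MHC region of chromosome 6, taken here from MOG (29656981 to 29672372) to KIFC1 (33391536 to 33409924), where 60 of 141 protein-coding genes (42.5%) were under the filter against 22.1% of all protein-coding genes. CSNK2B, a subunit of casein kinase 2 that most cells use, had at most 1 read there. A count near 0 in this region was therefore not read as absence. Transcripts that matched no gene of the annotation took 3.24 to 3.75% of the reads of the 0 h and 48 h libraries, and their part in these counts was not tested.

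Growth factors and the TGF-beta pathway rose in part. Of 25 tested, 16 were higher, 1 lower and 8 not called (median log2 fold change 0.66), and 10 were higher at 48 h than at 24 h. Besides INHBA, the ligand PDGFB, a mitogen stored in platelets, went from 0.338 and 0.161 CPM to 157 and 157 (log2 fold change 9.27, adjusted p by edgeR 9.32e-13), and TGFB1, transforming growth factor beta 1, rose by 2.12 on the log2 scale. Among receptors, EGFR had 0 reads at 0 h and 10.1 and 10.8 CPM at 48 h, higher by at least 111-fold, and TGFBR2, a receptor for TGF-beta, went from 0.767 and 0.644 CPM to 6.86 and 6.47. SMAD7, which blocks TGF-beta signalling, rose by 3.23. VEGFA, a growth factor for blood vessels and the member with the highest mean TPM, was higher too (0.66). EREG, the EGFR ligand epiregulin, was the member called lower (−0.54, adjusted p by edgeR 0.00188).

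Adhesion genes were mostly higher. Of 32 integrin and adhesion genes 20 were higher and 4 lower (median log2 fold change 1.37). CD44 (chromosome 11, 35138870 to 35232402), the receptor for hyaluronan, stood at 14.3 and 15.2 CPM at 0 h and 4568 and 4852 at 48 h (log2 fold change 8.32, SE 0.14, adjusted p by edgeR 8.69e-14). ITGA2, the alpha subunit of a collagen receptor, rose by 6.54 on the log2 scale. ITGA6, the alpha subunit of laminin receptors, had 2 reads in all at 0 h and 10.9 and 11.3 CPM at 48 h, a ratio of 316 with a 95% counting interval of 87.2 to 2615, and 84.2 and 74.7 CPM at 72 h (log2 fold change 2.83 between 48 and 72 h, adjusted p by edgeR 2.28e-05). ITGA4, the alpha subunit of a fibronectin receptor of blood cells, was lower (log2 fold change −1.39). The adaptors that tie integrins to actin, TLN1 (talin, 1.52) and VCL (vinculin, 1.21), were higher on the log2 scale.

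The actin cytoskeleton list had 24 of 35 tested members higher and 6 lower (median log2 fold change 0.97). ACTB, beta-actin, stood at 1786 and 2065 CPM at 0 h and 3946 and 4192 at 48 h (log2 fold change 1.08, adjusted p by edgeR 4.61e-06). TPM4 (3.19), the main tropomyosin of platelets, VIM (vimentin, 2.15) and FLNA (filamin A, 1.61), whose promoter is shown above, were higher on the log2 scale. S100A10, the partner of annexin A2, was higher (log2 fold change 4.70, or 5.40 without 0 h replicate 2). ANXA1, annexin A1, ran against the list, from 449 and 407 CPM at 0 h and 352 and 356 at 24 h to 129 and 118 at 48 h (log2 fold change −1.80 against 0 h and −1.52 against 24 h, adjusted p by edgeR 1.34e-07 and 1.18e-05). Against 24 h, 6 members were higher and 10 lower.

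Among genes of extracellular proteolysis and matrix 21 of 28 were higher and 4 lower, with a median log2 fold change of 2.35. Over the members with at least 10 counts in every library the median was 1.35, with 14 higher and 4 lower. TIMP1 (chromosome X, 47582313 to 47586789), an inhibitor of matrix metalloproteases, stood at 81.1 and 137 CPM at 0 h and 10040.0 and 12007 at 48 h (log2 fold change 6.66, SE 0.26, adjusted p by edgeR 7.76e-11). SERPINB2, plasminogen activator inhibitor 2, had 2 reads in all at 0 h and 94.5 and 88.5 CPM at 48 h, a ratio of 2592 with a 95% counting interval of 717 to 21407, after 179 and 172 CPM at 24 h. PLAUR, the urokinase receptor, rose by 3.78 on the log2 scale. An inhibitor of plasminogen activators and the urokinase receptor were thus both called higher. Among the metalloproteases, MMP1 (6.68) and MMP9 (5.94) were higher on the log2 scale and MMP17 (−3.14) lower. MMP10, whose promoter carries an AP-1 motif above, had 3 reads in all at 0 h and 2.53 and 1.95 CPM at 48 h, a ratio of 42.1 with a 95% counting interval of 14.2 to 207, but had been at 21.5 and 21.3 CPM at 24 h.

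**Figure D3:**
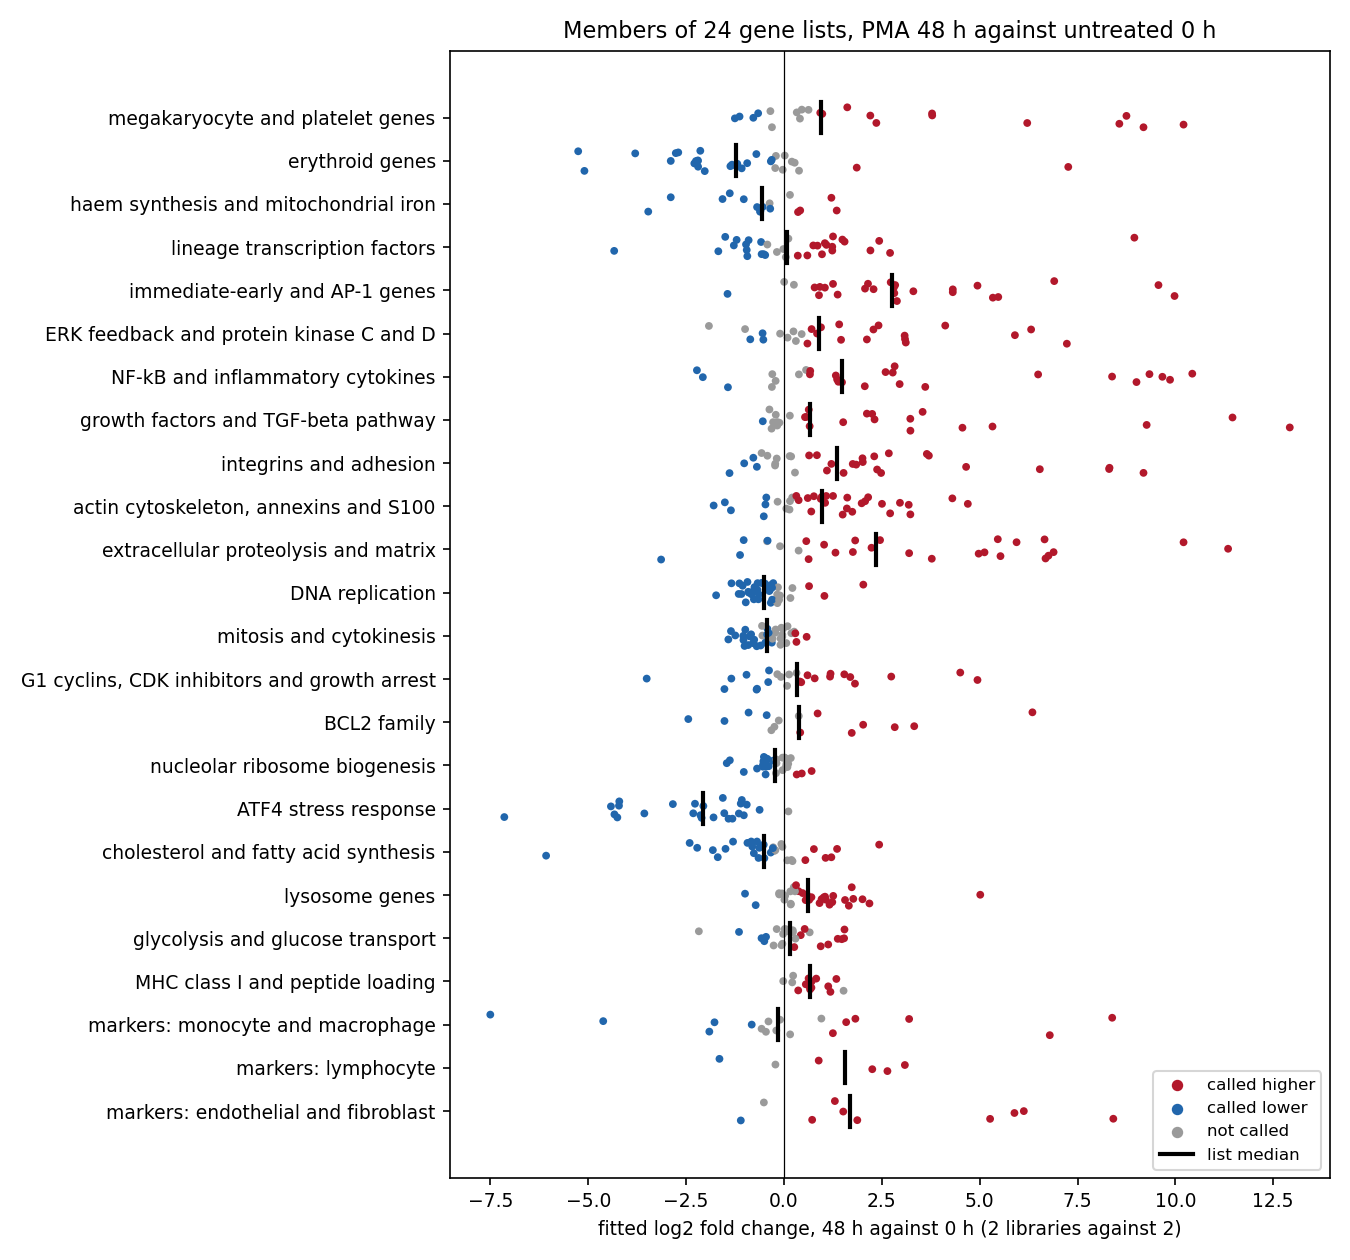
Fitted log2 fold change at 48 h against 0 h for each tested member of 24 gene lists (rows); red points were called higher, blue lower, grey not called, and black bars are list medians. The ATF4 row lies left of 0 for 24 of 25 members (median −2.06), and the immediate-early row has the highest median, 2.77.

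Genes of DNA replication were mostly lower than at 0 h, and 23 of them were higher than at 24 h. Of 42 tested, 3 were higher and 30 lower against 0 h (median log2 fold change −0.52), while against 24 h 23 were higher and 0 lower (median 0.38). The 2 comparisons share the 48 h libraries. MCM7, a subunit of the replicative helicase, was at 423 and 505 CPM at 0 h, 154 and 153 at 24 h, then 252 and 241 at 48 h (log2 fold change −0.91 against 0 h and 0.68 against 24 h, adjusted p by edgeR 2.53e-05 and 0.00206). CDT1, which loads the helicase, was at 197 and 269.6 CPM at 0 h, 39.2 and 47.4 at 24 h, then 63.9 and 76.5 at 48 h (log2 fold change −1.73 against 0 h). In both genes the 48 h libraries lay above the 24 h and below the 0 h libraries. RRM2, the ribonucleotide reductase subunit that supplies deoxynucleotides, went against the list, at 96.1 and 99.8 CPM at 0 h, 166 and 183 at 24 h, then 404 and 394 at 48 h (log2 fold change 2.03 against 0 h, adjusted p by edgeR 4.88e-10, or 1.14 with counts made from TPM). No member was called between 48 and 72 h (edgeR).

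Mitotic genes gave like counts. Of 40 tested, 3 were higher, 22 lower and 15 not called against 0 h, and 25 were higher and 0 lower against 24 h. CENPA, the histone of centromeres, was at 37.1 and 38.7 CPM at 0 h, 8.20 and 8.57 at 24 h, then 14.2 and 14.1 at 48 h (log2 fold change −1.42 against 0 h). MKI67, a protein of dividing cells, was at 346 and 367 CPM at 0 h, 236 and 248 at 24 h, then 413 and 459.5 at 48 h (log2 fold change 0.29 against 0 h and 0.85 against 24 h, adjusted p by edgeR 0.0391 and 1.86e-04). CDK1, the kinase that starts mitosis, was not called against 0 h (−0.04, adjusted p by edgeR 0.859), nor was TOP2A, which untangles chromosomes (−0.29, adjusted p by edgeR 0.0871). PTTG1, securin, the member with the highest mean TPM, was lower (log2 fold change −0.78). ANLN, the cytokinesis scaffold anillin, was called higher against 0 h (0.58).

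Clustered histone genes are a family picked after the values were seen. Of 57 tested, 0 were higher and 44 lower at 48 h than at 0 h (median log2 fold change −1.04), 44 were higher and 1 lower than at 24 h (median 1.13), and 0 were higher and 9 lower at 72 h than at 48 h (median −0.54). These genes are made during DNA replication, mostly lack poly(A) tails and are near-identical copies, so reads can be split among them.

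**Figure D4:**
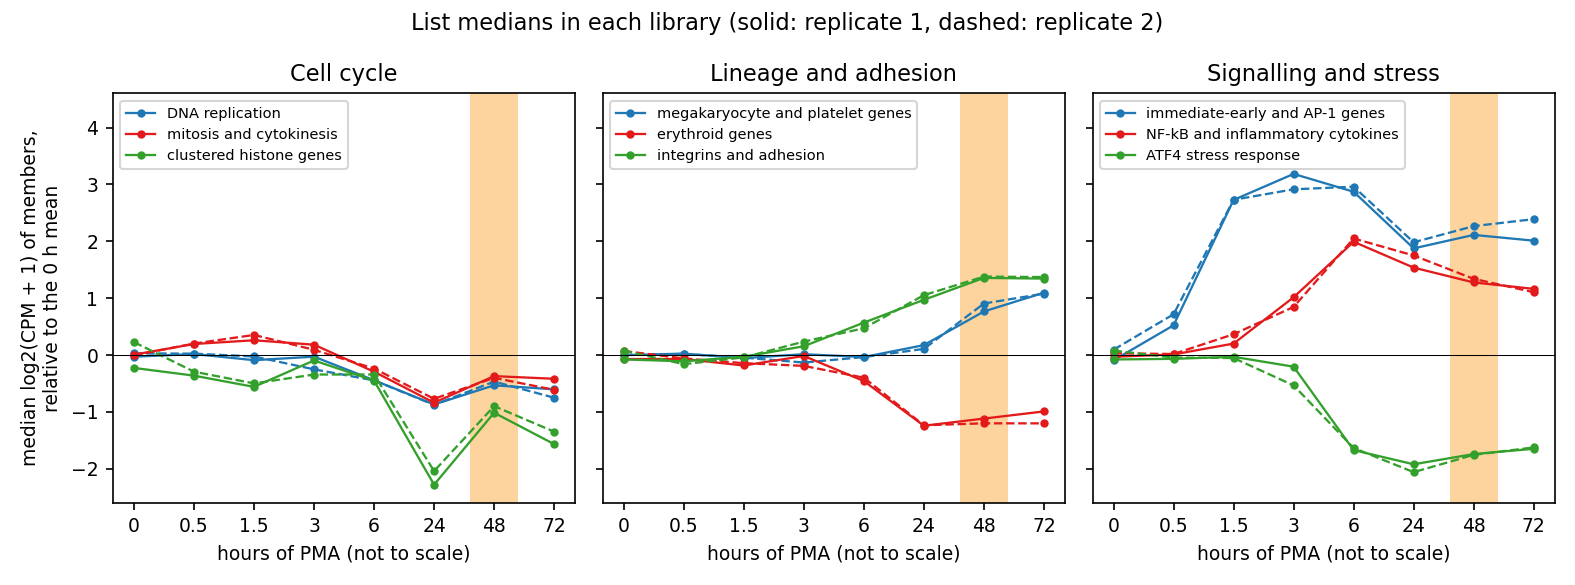
Median log2(CPM + 1) of the members of 9 gene groups in each library, relative to the mean of the 0 h libraries, at each of 8 time points (evenly spaced, not to scale; solid lines replicate 1, dashed replicate 2; 48 h shaded). The 3 cell cycle groups have their lowest point at 24 h and lie higher at 48 h, with the histone median going from −2.28 and −2.04 to −1.02 and −0.90.

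Among the D-type cyclins, which start the cycle, CCND1, cyclin D1, went from 13.7 and 15.3 CPM to 311 and 346 (log2 fold change 4.50, SE 0.11, adjusted p by edgeR 8.72e-13), and CCND2, cyclin D2, from 273 and 263 CPM to 24.0 and 23.2 (log2 fold change −3.51, SE 0.10, adjusted p by edgeR 3.70e-12). CCND3 rose by 1.18 on the log2 scale. CDKN1A, the inhibitor p21, went from 12.5 and 14.8 CPM to 88.3 and 93.8 (log2 fold change 2.74) with no overlap. CDKN1C, the inhibitor p57, was at 3.52 and 3.55 CPM at 24 h and 8.90 and 8.78 at 48 h (log2 fold change 1.32, adjusted p by edgeR 0.00309). The arrest genes BTG2 (4.94) and GADD45A (1.54) were higher on the log2 scale. CDKN1B, the inhibitor p27, was lower (log2 fold change −0.70). CDKN2A and CDKN2B had 0 reads in every library. Over the list of G1 cyclins, kinase inhibitors and arrest genes 12 of 25 were higher and 8 lower.

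In the BCL2 family 7 of 15 members were higher and 4 lower. BCL2 itself, a blocker of cell death, fell from 5.19 and 4.18 CPM to 0.823 and 0.892 (log2 fold change −2.44). MCL1, a short-lived member of the same kind, rose from 294 and 255 CPM to 1142 and 1092 (log2 fold change 2.02), and BCL2L1, which encodes BCL-XL, was higher too (log2 fold change 0.42). BCL2A1 rose from 3 reads in all at 0 h to 3.35 and 4.91 CPM, a ratio of 78.8 with a 95% counting interval of 26.7 to 384. Death-promoting members were on both sides: BMF was higher (log2 fold change 3.33) and BBC3, known as PUMA, lower (−1.52). Genes of nucleolar ribosome biogenesis were lower on balance, with 3 of 30 higher and 15 lower (median log2 fold change −0.24), and again lower in 8 and higher in 0 against 24 h. FBL, fibrillarin (−1.38), and NPM1, nucleophosmin (−0.53), were lower on the log2 scale, BOP1 had the largest fall of the list (−1.46), and NIP7 was higher (0.71).

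The genes of the ATF4 stress response were nearly all lower. Of 25 tested genes 0 were higher, 24 lower and 1 not called, with a median log2 fold change of −2.06. This response, driven by the factor ATF4, raises genes for making and importing amino acids when the cell senses a shortage. PSAT1 (chromosome 9, 78297143 to 78330093), an enzyme of serine synthesis, fell from 315 and 349.6 CPM to 16.5 and 14.5 (log2 fold change −4.42, SE 0.18, adjusted p by edgeR 9.39e-11), and ASNS, asparagine synthetase, was lower too (log2 fold change −3.57). WARS1, a tRNA synthetase gene and the member with the highest mean TPM, stood at 749 and 802 CPM at 0 h and 180.2 and 192 at 48 h (log2 fold change −2.06). CHAC1, which breaks down glutathione, fell from 30.6 and 38.3 CPM to 1.77 and 1.95. FGF21, a stress hormone, went from 0.399 and 0.644 CPM to 0 reads, at least 5.96-fold lower. ATF4 itself was at 309 and 355 CPM at 0 h, 86.6 and 96.8 at 24 h, then 165 and 178 at 48 h (log2 fold change −0.95 against 0 h and 0.90 against 24 h). Against 24 h 10 members were higher and 2 lower. CEBPB, a partner of ATF4, was the member not called (0.11).

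Lipid synthesis genes were lower in part: of 33 genes of cholesterol and fatty acid synthesis 6 were higher and 19 lower (median log2 fold change −0.50). The desaturase gene FADS1 fell from 1029 and 1009.5 CPM to 192 and 191 (log2 fold change −2.41, SE 0.10, adjusted p by edgeR 1.41e-10). SQLE, squalene epoxidase of cholesterol synthesis, ran the other way, from 149.6 and 134 CPM to 751 and 778 (log2 fold change 2.43, SE 0.11, adjusted p by edgeR 2.87e-10). Neither gene had overlapping groups.

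Lysosome genes were mostly higher, with 22 of 34 higher and 2 lower (median log2 fold change 0.62). CTSL (chromosome 9, 87725519 to 87731393), the protease cathepsin L, went from 65.5 and 79.4 CPM to 2306 and 2382 (log2 fold change 5.02, SE 0.13, adjusted p by edgeR 2.12e-12). CTSB, cathepsin B, rose by 2.18 and CD63, a tetraspanin of lysosomes and platelet granules, by 2.01 on the log2 scale. NPC1, which exports cholesterol from lysosomes, went from 102 and 115 CPM to 319 and 322 (log2 fold change 1.56). The factor gene TFEB, which switches on lysosome genes, rose from 2.49 and 4.15 CPM to 11.2 and 11.5 (log2 fold change 1.77). LAMP1, the abundant lysosome membrane protein, was not called (0.01, adjusted p by edgeR 0.920), and GAA, acid alpha-glucosidase, was lower (−0.99).

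Glycolysis genes had 9 of 26 members higher and 4 lower. That is 50% called, near the 54.3% of all genes (30.2% higher and 24.1% lower). The median log2 fold change of the list was 0.16, and −0.0039 with libraries scaled to total counts. PKM, pyruvate kinase (1.48), and SLC2A3, a glucose transporter (1.54), were higher and LDHB, lactate dehydrogenase B (−1.15), lower on the log2 scale. SLC2A14, a near copy of SLC2A3 that can share its reads, had the largest rise of the list (1.55). ENO1, enolase 1, was not called (0.22, adjusted p by edgeR 0.148). Genes of MHC class I and its peptide loading had 11 of 15 tested members higher and 0 lower (median log2 fold change 0.67). B2M, the shared light chain, went from 233 and 234 CPM to 362 and 399.9 (log2 fold change 0.70). HLA-E was called higher (log2 fold change 1.34), but it and TAP1, TAP2 and TAPBP lie in the MHC region described above, and HLA-B and HLA-C were under the filter there.

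Markers of other cell types were read as a check of the label. Of 25 monocyte and macrophage markers 18 were tested, 6 higher and 5 lower (61.1% called, near the 54.3% of all genes). The summed level of these markers was 584 to 598 TPM at 0 h and 328 to 372 TPM at 48 h. The list's largest called fall and its member with the highest mean TPM was MS4A3, described above, at 276 and 201 CPM at 0 h and 1.52 and 1.12 at 48 h (−7.50). LYZ, lysozyme, was also lower, at 72.4 and 72.4 CPM at 0 h and 40.0 and 41.7 at 48 h (−0.82). The largest called rise was that of MPO, myeloperoxidase, at 0.0614 and 0.0644 CPM at 0 h and 21.6 and 22.9 at 48 h (log2 fold change 8.39) and CSF1R, the macrophage growth factor receptor, at 0.0307 and 0.0966 CPM at 0 h and 7.16 and 7.59 at 48 h (6.79). CD14, the monocyte receptor for endotoxin, was not called (0.123 and 0.161 CPM at 0 h and 0.0914 and 0.112 at 48 h), and AZU1, C1QA, C1QB, ELANE and MARCO were under the filter. Of 14 endothelial and fibroblast markers 10 were tested, 8 higher and 1 lower, with a summed level of 25.8 to 27.8 TPM at 0 h and 249 to 266 TPM at 48 h. TIE1, a receptor of endothelial cells and megakaryocytes, went from 4.14 and 4.18 CPM to 246 and 248 (log2 fold change 5.89), and COL1A1, type I collagen, from 3.10 and 3.83 CPM to 244 and 241 (6.13). CLDN5, COL3A1, KDR and LUM did not reach the filter (7 reads at most). CDH5, of the same list, had 1 read in all at 0 h and 51 at 48 h. That was a ratio of 42.1 with a 95% counting interval of 7.23 to 1697. PDGFRB, a receptor of fibroblasts and pericytes, had 2 reads in all at 0 h and 11.7 and 12.3 CPM at 48 h, a ratio of 340.1 with a 95% counting interval of 93.8 to 2813. EMCN was the member called lower (log2 fold change −1.10, adjusted p by edgeR 0.0342), a call that was lost without 0 h replicate 1 or 2 (adjusted p by edgeR 0.0836 and 0.0850) and without 48 h replicate 1 or 2 (0.0864 and 0.146). Of 13 lymphocyte markers 6 were tested, 4 higher and 1 lower, at 28.6 to 40.8 TPM summed at 0 h and 62.9 to 65.9 TPM at 48 h, and MS4A1 had 0 reads. CD79B, of the B cell receptor, was higher (log2 fold change 3.09), and so was CD3D, of the T cell receptor (0.89). The part of other cell types in these results was not tested.

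Against 24 h, the 48 h libraries had 1559 genes higher and 1074 lower (edgeR), which is 15.0% of those tested, with 8.88% higher and 6.12% lower. Leaving out 1 of the 4 libraries left 1134 to 1474 calls (1474 and 1134 without 24 h replicate 1 or 2, 1218 and 1221 without 48 h replicate 1 or 2). With libraries scaled to total counts the share higher among the calls went from 59.2% to 72.9%. Named by the rule, A2M, the protease inhibitor alpha-2-macroglobulin, went from 2.03 and 2.20 CPM at 24 h to 35.3 and 34.9 at 48 h (log2 fold change 4.04, SE 0.23, adjusted p by edgeR 1.64e-07). JAG1, a ligand of Notch receptors, went from 1.74 and 1.64 CPM to 23.0 and 23.5 (log2 fold change 3.78), and CGA, the shared alpha subunit of glycoprotein hormones, from 1.68 and 1.66 CPM to 23.3 and 25.3 (3.86). At 72 h A2M was at 87.9 and 65.7 CPM and JAG1 at 71.0 and 61.9, both called higher than at 48 h (adjusted p by edgeR 0.0106 and 2.79e-04). CGA was at 42.9 and 32.8 CPM at 72 h and was not called (adjusted p by edgeR 0.103). PRSS2, a trypsinogen with near-identical copies, was called higher (log2 fold change 3.86), and FKBPL, in the MHC region, was listed at 0 reads at 24 h and 12.8 and 12.7 CPM at 48 h, so both are uncertain.

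Of the 5 largest falls between 24 and 48 h by the rule 4 are given, all of genes whose 24 h libraries both lay above the 0 h libraries. MMP10 had a log2 fold change of −3.25 against 24 h (adjusted p by edgeR 5.79e-06). HPGD, which inactivates prostaglandins, was at 0.951 and 0.644 CPM at 0 h, 85.4 and 77.3 at 24 h, then 14.7 and 11.9 at 48 h (−2.61). The membrane protein gene MLC1 (−2.62) and the gel-forming mucin gene MUC5AC (−2.53) were also lower than at 24 h. All 4 genes stayed above both 0 h libraries at 48 h.

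Between 48 and 72 h, 201 genes were higher and 57 lower at 72 h (edgeR), or 1.47% of those tested, with 1.14% higher and 0.325% lower. Over 9983 genes, the log2 fold change between 48 and 72 h tended to fall as GC content rose (r = −0.367). For 48 h against 0 h this r was −0.025, and for 48 h against 24 h it was 0.155. The 2 libraries at 72 h also differed from each other along GC content (r = −0.572), as did those at 48 h (r = −0.287). The part of this trend in single calls was not tested. At an unadjusted p under 0.05, 2098 genes differed between 48 and 72 h. The count rested on single libraries, at 37 and 40 without 48 h replicate 1 or 2, 92 without 72 h replicate 1 and 189 without 72 h replicate 2. Besides ITGA6, the cytokine gene IL24 went from 31.3 and 30.8 CPM at 48 h to 129.7 and 109.8 at 72 h (log2 fold change 1.95, SE 0.14, adjusted p by edgeR 2.28e-05), and the export pump gene ABCC2 from 2.71 and 2.68 CPM to 12 and 11.1 (2.1). IL19, a neighbour of IL24 on chromosome 1 and of the same cytokine family, went from 2.86 and 2.45 CPM to 16.7 and 12.8 (2.47, adjusted p by edgeR 0.00615), a call lost without 48 h replicate 1 (0.0930), 48 h replicate 2 (0.116) or 72 h replicate 1 (0.0501). The keratin gene KRT75 was called higher (log2 fold change 2.35) and lost its call without 48 h replicate 2 (adjusted p by edgeR 0.0515). Of the falls, the collagen gene COL5A3 was at 105 and 105 CPM at 24 h, 28.6 and 25.2 at 48 h, then 7.50 and 5.65 at 72 h (log2 fold change −2.03 between 48 and 72 h, adjusted p by edgeR 4.82e-05), and IL11 was lower too (−1.36). The neuropeptide gene GAL (−1.21), LRRC15 (−1.29) and the mucin gene MUC19 (−1.11) were called lower too, and each lost its call without at least 1 library: GAL without 48 h replicate 2 or 72 h replicate 1 (adjusted p by edgeR 0.0630 and 0.0615), and LRRC15 and MUC19 without either 48 h library or 72 h replicate 1 (adjusted p 0.0820 to 0.102 and 0.180 to 0.197).

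A small set of genes at 48 h differed from both neighbouring times. The set rests in part on the comparison of 48 and 72 h, whose trend with GC content is given above. The part of that trend in this set was not tested gene by gene. Of all genes tested, 17 (0.0968%) were higher at 48 h than at both 24 and 72 h, and 9 of these were clustered histone genes. Without 48 h replicate 1 or 2 the whole count of 21 genes fell to 2 and 1, and without 72 h replicate 1 or 2 to 4 and 10. Without 24 h replicate 1 or 2 it was 17 and 17. Each of the 8 genes named next lost a call against 72 h without 48 h replicate 1, 48 h replicate 2 or 72 h replicate 1. Without 72 h replicate 2, H2AC4, H2AC21, TM4SF19 and ADTRP also lost it (adjusted p by edgeR 0.131, 0.120, 0.0606 and 0.0607), and LRRC15, TM4SF19 and ADTRP lost their call against 24 h without any 1 of the 24 h and 48 h libraries. H3C14, a histone H3 gene, was at 47.3 and 55.0 CPM at 24 h, 199 and 223 at 48 h, then 97.4 and 129.7 at 72 h. H2AC4, a histone H2A gene, was at 6.62 and 6.68 CPM at 24 h, 17.9 and 17.0 at 48 h, then 10.7 and 8.87 at 72 h, and H2AC21, another, at 8.29 and 9.07 CPM at 24 h, 16.7 and 18.9 at 48 h, then 10.9 and 10.1 at 72 h. RLN3, the relaxin-family hormone gene, was at 18.1 and 22.0 CPM at 24 h, 203 and 237 at 48 h, then 103 and 133 at 72 h. LRRC15, a leucine-rich repeat membrane protein, was at 6.13 and 5.56 CPM at 24 h, 9.72 and 9.84 at 48 h, then 3.71 and 4.31 at 72 h. In all 5 both 48 h libraries lay above the 24 h and 72 h libraries. Lower at 48 h than at both were 4 genes (0.0228%). Among them SAT1, which acetylates polyamines for breakdown, was at 59.0 and 59.8 CPM at 24 h, 41.7 and 38.3 at 48 h, then 64.9 and 54.8 at 72 h. TM4SF19, a membrane protein of the tetraspanin-like family, was at 214 and 212 CPM at 24 h, 154 and 143 at 48 h, then 233 and 222 at 72 h. ADTRP, a regulator of the inhibitor of tissue factor, was at 10.7 and 11 CPM at 24 h, 7.50 and 7.95 at 48 h, then 12.8 and 11.2 at 72 h.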

How the data were processed

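RNA sequencing of K562 cells at 8 times of PMA treatment gave 16 libraries. Trim Galore 0.4.3 and Salmon are named in the submitters' processing notes, with hg19 and hg38 and no roles. The deposited tables hold, per transcript, estimated counts and TPM that the authors made, and transcript lengths in bases, per the file headers. Estimated counts were summed per gene of the GENCODE release 29 annotation (GRCh38; 94.1% of 177456 transcripts matched) and rounded. Transcripts with no match took 3.24 to 3.75% of the reads of the 0 h and 48 h libraries and stayed out. edgeR 4.0.16 (R 4.3.3) fitted all 16 libraries (TMM, filterByExpr, 17559 genes, quasi-likelihood test, Benjamini-Hochberg adjusted p under 0.05, prior count 0.125). DESeq2 1.42.0 was an alternative. Folds against 0 reads used a floor of 3 reads per library. Intervals for 1 to 3 reads are exact at 95% and cover counting error only. The script was tested on simulated counts.

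The genes named are the 12 largest called rises and falls against 0 h, and 5 for other comparisons, among protein-coding genes that averaged 5 CPM or more over the 4 libraries and had groups without overlap and no time point with 0 reads in 1 library and at least 5 CPM in the other. From each list the largest called rise and fall and the highest mean TPM are named, with further members by role; some are not reported here. The members, lists and rules were chosen with earlier results of these data known.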

Additional observations from a re-analysis of the deposited data

Results flagged for a closer look

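Of the genes named from a list or for 48 h against 0 h, 33 differed between 24 and 48 h and 2 between 48 and 72 h. Each was called by a direct edgeR test between the 2 times with an adjusted p under 0.05. Genes named only for the other comparisons are not counted here. With 15.0% of all genes called between 24 and 48 h, calls of this kind were common among all genes. The values below are log2 differences.

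Higher than at 0 h, and higher again at 48 h than at 24 h, were RLN3 (3.45), STC1 (2.68), DMBT1 (2.20), CEMIP (2.16), PCSK1 (1.85), EGR4 (1.50), SLAMF8 (1.48), PCDHGC5 (1.24), RRM2 (1.19), PDGFRB (1.17), SNCB (0.97), ITGB3 (0.82), BCL2A1 (0.79), CORO2B (0.70), THBS1 (0.67), ANLN (0.54), TIE1 (0.48), CTSL (0.47) and HLA-E (0.45). SERPINB2 (−0.94) and B2M (−0.35) were above their 0 h levels but lower than at 24 h. The receptor gene PDGFRB stood at 5.00 and 5.62 CPM at 24 h and 11.7 and 12.3 at 48 h.

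Lower than at 0 h, and lower again at 48 h than at 24 h, were S100P (−2.79), MS4A3 (−2.31), PKLR (−1.90), ANXA1 (−1.52) and WARS1 (−0.30), the gene of tryptophanyl-tRNA synthetase. GAA (0.83), KLF1 (0.77), CENPA (0.75), CDT1 (0.70), MCM7 (0.68) and FADS1 (0.39) were below their 0 h levels but higher than at 24 h. HBG2, not called against 0 h, was higher at 48 h than at 24 h (0.67).

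Between 48 and 72 h, CEMIP was higher (0.68) and RLN3 lower (−0.90). The RLN3 call between 48 and 72 h was lost without 48 h replicate 1 or 2 or 72 h replicate 1 (adjusted p by edgeR 0.0550, 0.191 and 0.0814).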

How the results depend on the processing

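For 48 h against 0 h, every alternative but one kept the count of 9529 within 1.5 times, and no gene was called in the opposite direction by any alternative. Testing against a 2-fold change left 2948 genes. Members of the lists, markers of other cell types left out, made up 210 of them. For 48 h against 24 h (2633 genes), fits on only the 4 libraries gave 4444, a 2-fold test 224, an adjusted p under 0.01 1321, and leaving out 1 library 1134 to 1474. For 72 h against 48 h (258 genes), no low-count filter gave 659, only the 4 libraries 87, counts made from TPM 79, a 2-fold test 6, an adjusted p under 0.01 77, and leaving out 1 library 37 to 189. For genes apart from both neighbours (21), the same settings gave 110, 5, 6, 0 and 3, DESeq2 38, and leaving out 1 library 1 to 17. The cause of these differences was not tested. Medians changed sign for glycolysis with total counts (−0.0039), lymphocyte markers with at least 10 counts in every library (−0.19, fewer genes tested), and the monocyte marker median went from −0.15 to 0 with no filter (more genes tested). The median of the lineage transcription factors, near 0 in the main fit (0.08), also changed sign. It was −0.08 with total counts and −0.13 without 0 h replicate 1. The lymphocyte marker median was 0.90 with no filter. Of 121 named gene results, 81 kept their side of the threshold in every alternative.

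The replicate numbers do not pair the libraries by the labels, and the deviations of same-numbered libraries correlated at r = −0.296 to 0.598 between times. With the replicate number as a block the count was 9888 for 48 h against 0 h, 3008 against 24 h, 326 for 72 h against 48 h and 32 apart from both. The block with the GC trend removed gave 11083, 4957, 1280 and 172.

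The estimated reads limit genes at or near 0: 3 reads were 0.0825 to 0.107 CPM of the matched reads in the 0 h and 48 h libraries. In simulated counts with 2 libraries a group, 200 of 17559 genes were given a change. Of those, 58% of the 2-fold changes and 85% of the 4-fold changes were recovered. In the data 54.3% of genes were called against 0 h, so these shares do not measure recovery in that comparison.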

Other observations

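Several genes had 1 to 3 reads over both 0 h libraries and were called higher at 48 h than at 0 h. COL5A3, a fibrillar collagen gene, reached 28.6 and 25.2 CPM, a ratio of 1521 with a 95% counting interval of 273 to 60121. A2M at 35.3 and 34.9 CPM had a ratio of 1989.9 with a 95% counting interval of 357 to 78628, and CGA at 23.3 and 25.3 CPM a ratio of 1382 with a 95% counting interval of 248 to 54638. CSF2, the cytokine GM-CSF of the inflammatory list, reached 9.78 and 10.2 CPM, a ratio of 567 with a 95% counting interval of 101 to 22423.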
